A study of Bos taurus with 33 samples.

Results

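The cytosolic ribosomal protein genes are the genes whose products, together with ribosomal RNA, build the ribosomes of the cytoplasm. They were taken here as all symbols in the array annotation that start with RPL or RPS and a digit, or with RPLP, without the RPS6K kinases. This gave 68 genes on 97 probe sets, out of 9155 genes with a symbol and 24016 probe sets tested. Of the 68, 39 encode proteins of the large subunit and 22 proteins of the small subunit. A further 5 are variant copies (RPL3L, RPL26L1, RPS27L, RPS4Y1 and RPL15P), and 2 carry a matching symbol but are not core subunits (RPS19BP1, which encodes a protein that binds RPS19, and RPL7L1, a relative of RPL7). Each of 19 genes had more than 1 probe set, and the brightest over all arrays stood for it. RPLP1, RPL41 and RPL22L1 were not among the symbols and were not analysed here.

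Each ribosome holds 1 copy of nearly every one of these proteins, so cells make them in close to equal amounts. The large subunit joins amino acids, the small subunit reads the message, and the stalk proteins RPLP0 and RPLP2 recruit translation factors to the large subunit. The messages of ribosomal proteins are among the most abundant in any growing tissue. They begin with a run of pyrimidines (TOP messages), through which the mTOR pathway controls their translation and stability. During the days studied here a bovine conceptus elongates in the uterus, and its trophoblast secretes interferon tau, a type I interferon that signals pregnancy to the endometrium. Type I interferons are known to restrain protein synthesis in many cell types.

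RNA of 33 Bavarian Simmental heifers was measured on Affymetrix bovine arrays, 1 array per animal. In the first experiment, 3 heifers carried from day 14 a lipid extrudate that released human interferon alpha (IFNA) in the uterine horn on the side of the corpus luteum. A further 3 carried an empty extrudate (placebo) and 3 were given PBS, and about 6 biopsies per animal were taken from that horn on day 16. In the second, heifers inseminated with sperm of one bull and found pregnant, and cyclic heifers given sperm-free supernatant, were slaughtered on day 12 (5 pregnant and 5 cyclic), day 15 (3 and 3) and day 18 (4 and 4), and endometrium between the caruncles was taken. The biopsied uteri had been flushed first, and embryos or conceptuses were taken out of the pregnant uteri by flushing (day 12) or by hand after opening (days 15 and 18). All animals had been synchronised with 500 µg cloprostenol. The IFNA was human rather than bovine, a biopsy holds whatever layers the forceps reached, and the part of the horn sampled after slaughter differed between the days. Values are log2 signals.

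Sorted signals matched closely within 4 sets of arrays (biopsies, day 12, day 15 and day 18) and differed between them, with median log2 signals of 6.64, 6.86, 6.5 and 7.25. Comparisons between treatments, or between pregnant and cyclic animals of a day, stayed within a set; comparisons between days crossed sets. The markers of the labelled tissue were bright, with means in pregnant and cyclic animals of day 18 of 12.50 and 12.55 for the epithelial adhesion molecule EPCAM and of 13.02 and 13.48 for the stromal collagen COL3A1. The GAPDH control probe sets, which compare the 3′ end with the 5′ end of a message, differed by 1.03 to 3.87 log2 units on single biopsy arrays and by -0.16 to 0.56 on single slaughter arrays. The actin control probe sets had the opposite order, with 0.53 to 1.54 on biopsy arrays and 1.94 to 2.67 on slaughter arrays. The 2 controls thus did not rank the RNA of the sets alike.

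The members were among the brightest genes of the tissue. Over all arrays, 59 of 68 had a mean log2 signal of at least 12 and lay above percentile 99 of the probe sets tested, and the median of the 68 means was 13.04. The 5 brightest probe sets were those of RPS3A (13.77), RPS29 (13.66), RPS14 (13.54), RPL10 (13.52) and RPL35 (13.51). RPS3A, RPS29 and RPS14 sit in the small subunit, RPL10 is among the last proteins to join the large subunit, and RPL35 lies near the tunnel through which the new protein leaves. Signals of different probe sets also depend on their probes, so this order describes probe sets and not the amounts of message.

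**Figure D1:**
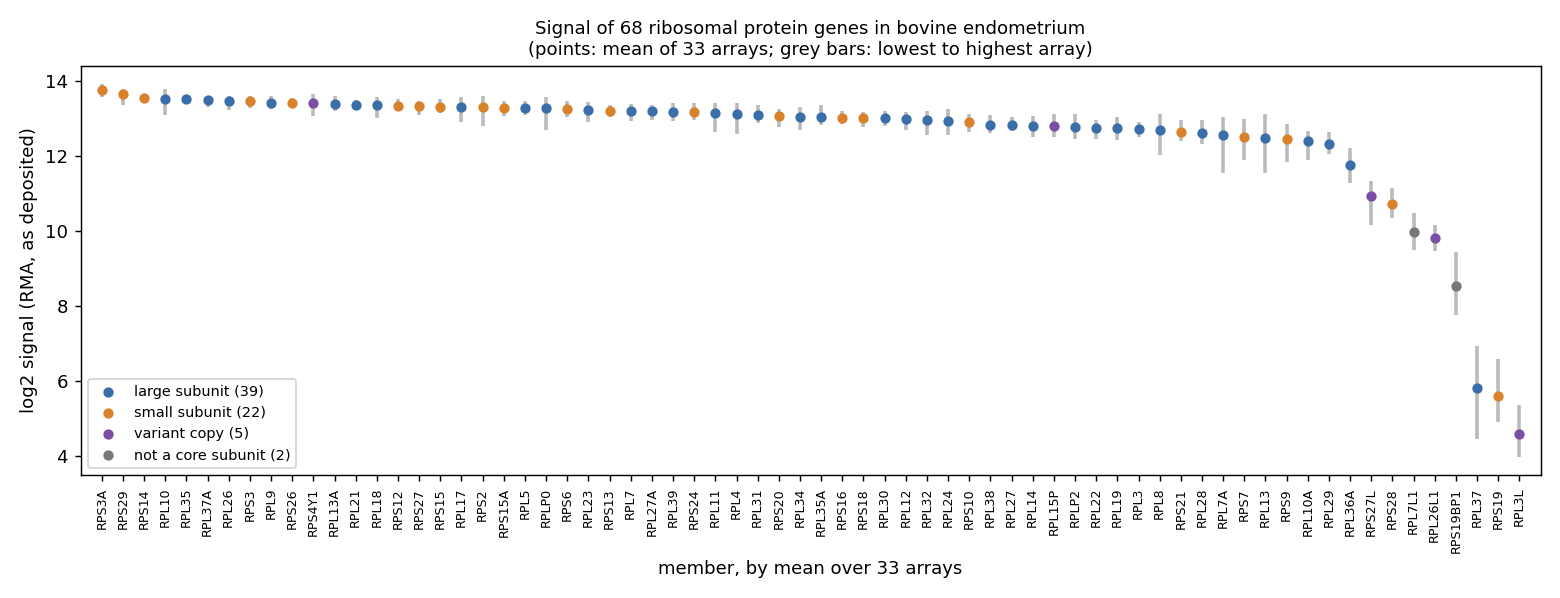
Mean log2 signal over 33 arrays (points, coloured by class) and the range from the lowest to the highest array (grey bars) of the 68 members, sorted by mean. A plateau of 59 members lies at 12 or above, and RPL3L, RPS19 and RPL37 lie below 6.

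The lowest probe sets fell into distinct kinds. RPL3L, the copy of RPL3 that human and mouse heart and skeletal muscle use, had a mean of 4.59 against 12.71 for its parent RPL3. RPL26L1, a close copy of RPL26, stood at 9.81 against 13.46 for RPL26, and RPS27L, a copy of RPS27 known as a p53 target in human cells, stood at 10.94 against 13.33 for RPS27. RPL7L1 stood at 9.98 against 13.20 for RPL7, and RPS19BP1 at 8.54. RPS19, which is mutated in human Diamond-Blackfan anaemia, had a mean of 5.60, and RPL37 one of 5.81. These last genes encode constitutive subunits, and their probe sets nevertheless lay under percentile 50 (33.4 for RPS19 and 36.3 for RPL37). Whether those probes reach the messages was not tested.

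Among the variant copies, RPS4Y1 and RPL15P were as bright as the core subunits, at 13.40 and 12.79. The symbol RPS4Y1 names a human Y-linked gene, but RefSeq places the bovine gene of this identifier on an autosome, with the synonym RPS4, which RPS4X bears too. RPL15P is a pseudogene in RefSeq, and neither RPL15 nor RPS4X had a probe set under its own symbol. Ribosomal protein genes have many processed copies in mammalian genomes, and how far these probe sets separate a gene from its copies was not tested.

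The median of the 68 members on each array, set against the median of all probe sets of that array, described their level across the 9 groups. It was 6.36 ± 0.036 after IFNA, 6.51 ± 0.070 after placebo and 6.49 ± 0.041 after PBS (SD, n = 3 each). It was 6.17 ± 0.038 in pregnant and 6.15 ± 0.043 in cyclic animals on day 12 (n = 5 each), 6.43 ± 0.015 and 6.49 ± 0.018 on day 15 (n = 3 each), and 5.75 ± 0.037 and 5.90 ± 0.032 on day 18 (n = 4 each). The IFNA arrays (6.32 to 6.385) lay below the placebo arrays (6.44 to 6.58) and the PBS arrays (6.445 to 6.525) without overlap. The pregnant and cyclic arrays of day 18 did not overlap either (5.715 to 5.795 and 5.875 to 5.935), nor did those of day 15 (6.415 to 6.445 and 6.47 to 6.505), whereas those of day 12 did.

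**Figure D2:**
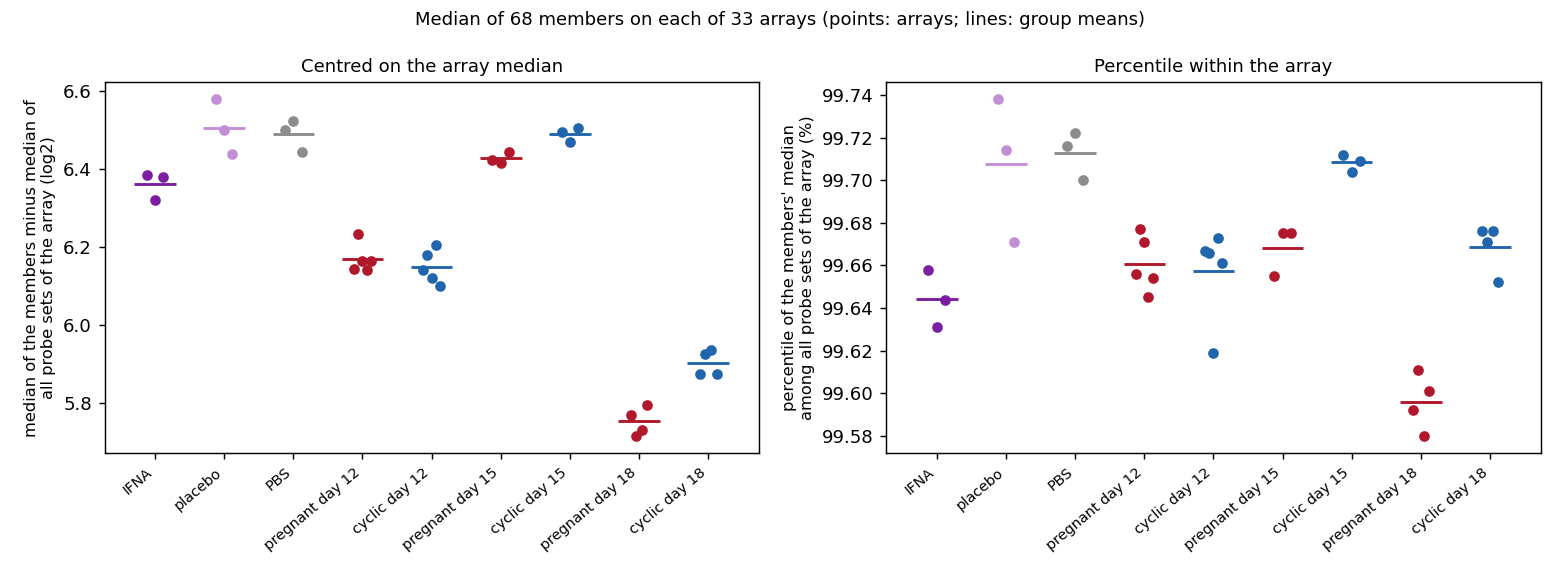
Left, the median of the 68 members minus the median of all probe sets on each of the 33 arrays (log2); right, the percentile of the members' median among the probe sets of the array. Points are arrays and lines are group means. On the left day 18 lies lowest, whereas on the right every array lies between 99.58 and 99.74 and the pregnant arrays of day 18 lie lowest. There the IFNA arrays lie below the other biopsy arrays but within the range of the day 12 arrays.

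On the percentile scale, which ignores how wide the signals of an array are spread, the groups moved little. The members' median lay at percentile 99.58 to 99.61 in pregnant and 99.65 to 99.68 in cyclic animals of day 18, and at 99.63 to 99.66 after IFNA, 99.67 to 99.74 after placebo and 99.70 to 99.72 after PBS. The distance from the array median to percentile 99.5 of all probe sets was 5.59 to 5.65 on day 18, 5.81 to 5.89 on day 12, 5.97 to 6.06 on day 15 and 6.07 to 6.16 in the biopsies, the same order of sets as the members' centred level in slaughter arrays.

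Many ribosomal protein messages were lower in pregnant than in cyclic endometrium on day 18. Of the 68 members, 27 fell and 1 rose at an adjusted p below 0.05 (limma over all 24016 probe sets, Benjamini-Hochberg), and 40 did not pass. Among all probe sets tested, 10.2% fell and 8.84% rose in this comparison, against 39.7% of the members that fell. The differences were small: their median was -0.12 for the members and -0.03 for all probe sets, and 62 members had a negative difference, against 56.1% of all probe sets. The falls were spread over both subunits, with 16 of 39 large subunit members, 9 of 22 small subunit members and 2 of the 7 others. Of the 161 other probe sets with a mean of at least 12, 21.7% fell and 5.59% rose, with a median of -0.08 against -0.12 for the 59 members as bright. In tissue RNA, fewer cells of a type and less RNA per cell cannot be told apart.

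RPS7, a small subunit protein needed for maturation of the small subunit RNA, showed the largest fall of the members. Its signal was 12.30, 12.37, 12.22 and 12.28 in the 4 pregnant heifers and 12.75, 12.89, 12.99 and 12.66 in the 4 cyclic heifers of day 18. All pregnant animals lay below all cyclic animals, and the gap between the groups was wider than the range within the pregnant group. The difference was -0.53 ± 0.066 (SE, adjusted p = 5.02e-06), a change in level of -30.7%. The other 2 probe sets of RPS7 were far dimmer (means of 7.79 and 4.15) and did not pass, with differences of -0.06 and -0.17.

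RPL4, whose long loop lines the exit tunnel of the large subunit, had 12.98, 12.96, 12.91 and 12.93 in pregnant and 13.37, 13.40, 13.39 and 13.30 in cyclic heifers. The groups were tight and far apart, and RPL4 had the smallest adjusted p of the members (-0.42 ± 0.048, adjusted p = 1.7e-06). RPL10A, which forms the mobile stalk next to the exit site for used transfer RNA, had 12.30, 12.05, 12.24 and 12.22 in pregnant and 12.57, 12.67, 12.56 and 12.57 in cyclic heifers. Pregnant replicate 2 was the lowest, and the groups did not overlap (-0.39 ± 0.066, adjusted p = 0.000216). RPL13, mutated in a human skeletal dysplasia, had 12.61, 12.67, 12.77 and 12.75 in pregnant and 13.11, 13.09, 13.04 and 13.01 in cyclic heifers, again apart (-0.36 ± 0.070, adjusted p = 0.000781).

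RPL22 is not required for translation itself and is known in the mouse for its part in lymphocyte development. It had 12.52, 12.47, 12.60 and 12.45 in pregnant and 12.84, 12.87, 12.87 and 12.78 in cyclic heifers, a difference of -0.33 ± 0.052 (adjusted p = 0.000103). RPL34, RPL17 (near the tunnel exit) and RPS4Y1 completed the 8 largest falls, with differences of -0.29 ± 0.048, -0.29 ± 0.056 and -0.28 ± 0.049, and their groups did not overlap.

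**Figure D3:**
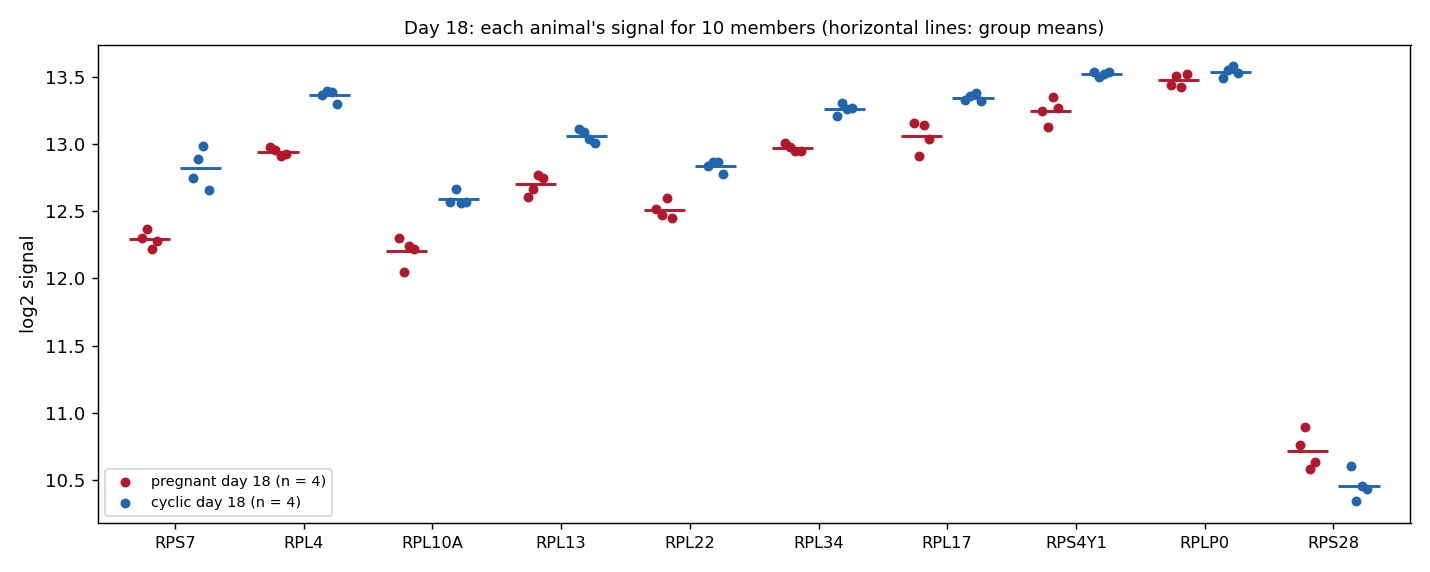
Log2 signal of 10 members in each pregnant (red, left of each pair) and cyclic (blue, right) heifer of day 18, n = 4 each; horizontal lines are group means. The 8 members with the largest falls show no overlap, RPLP0 overlaps, and RPS28 is higher in pregnant heifers with overlapping points.

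The remaining 19 falls ranged down to -0.14 for RPL18. They included RPL11 (-0.23 ± 0.049) and RPL5 (-0.17 ± 0.045), which together with a small ribosomal RNA bind and inhibit MDM2. RPS6, the substrate of the S6 kinases, had 13.11, 13.19, 13.12 and 13.18 in pregnant and 13.34, 13.37, 13.40 and 13.32 in cyclic heifers (-0.21 ± 0.046, adjusted p = 0.00262). RPS3A, the brightest member, differed by -0.20 ± 0.049 and RPL10 by -0.16 ± 0.054 (adjusted p = 0.0466). A second, nearly as bright probe set of RPL10 (mean of 13.16) fell by 0.21. Among the 29 probe sets of members that had not been chosen, 4 fell (of RPL10, RPL32, RPL9 and RPL15P) and none rose. Of all probe sets 10.2% fell and 8.84% rose, so the share that fell was near the background.

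RPS28, a small subunit protein near the path of the message, was the exception among the members. It had 10.76, 10.89, 10.58 and 10.63 in pregnant and 10.60, 10.34, 10.45 and 10.43 in cyclic heifers. Cyclic replicate 1 lay above the lowest pregnant animal, so the groups overlapped, although the difference passed (0.26 ± 0.074, adjusted p = 0.017). The call was lost without pregnant replicate 2 or without cyclic replicate 2, with adjusted p up to 0.0786.

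Members that did not pass included both stalk proteins. RPLP0 had 13.44, 13.51, 13.43 and 13.52 in pregnant and 13.49, 13.55, 13.58 and 13.53 in cyclic heifers, overlapping groups with a difference of -0.06 (95% interval -0.16 to 0.04). RPLP2 differed by -0.03 (-0.18 to 0.12). Of the variant copies, RPS27L fell with 11.05, 11.07, 10.85 and 11.01 in pregnant and 11.17, 11.28, 11.09 and 11.33 in cyclic heifers (-0.22 ± 0.073, adjusted p = 0.0371), groups that did not overlap, since its highest pregnant value lay just under its lowest cyclic one. Its parent RPS27 did not pass (-0.09, adjusted p = 0.212). The reverse held for RPL26, which fell by 0.25 ± 0.051 (adjusted p = 0.00141), while RPL26L1 differed by -0.18 (adjusted p = 0.106); the copies were not tested against their parents. RPL3L (0.09), RPL3 (-0.05), RPL7L1 (0.11) and RPS19BP1 (0.19) did not pass, whereas RPL7 fell by 0.26 ± 0.057.

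Counted without a test, the 4 pregnant arrays lay wholly below the 4 cyclic arrays for 39 members and wholly above for 1 (RPL7L1). Among all probe sets, 11.8% lay wholly below and 9.24% wholly above. The falls did not all depend on the scaling: 21 of the 27 also passed with arrays centred on their median and with all 33 arrays brought to one distribution, RPS7, RPL4, RPL10A, RPL13, RPL22, RPL34, RPL17, RPS4Y1 and RPS6 among them, and RPS28 rose under all 3. Under those 2 other scalings 9.23% and 11.3% of all probe sets fell. The share of all probe sets that fell under all 3 was not counted. A fit to the day 18 arrays alone, with fewer animals to estimate the spread, called 14 members lower and 0 higher, where 7.55% of all probe sets were called lower and 6.57% higher. At an unadjusted p below 0.05 the limma fit to all slaughter arrays gave 39 lower and 2 higher members, against 17.8% and 13.4% of all probe sets.

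The members did not move by equal amounts. With each array centred on the median of the members, RPS7 (-0.37 ± 0.057), RPL4 (-0.26 ± 0.048), RPL10A (-0.23 ± 0.061), RPL13 (-0.20 ± 0.062), RPL22 (-0.17 ± 0.054) and RPL34 (-0.13 ± 0.044) were still lower in pregnant heifers at an adjusted p below 0.05. On the same scale 7 members were higher, namely RPS28 (0.42 ± 0.077), RPS19BP1 (0.35), RPL7L1 (0.27), RPL3L (0.25), RPL36A (0.21), RPS29 (0.14) and RPS12 (0.13). These counts stood against 3.14% of all probe sets called lower and 22.9% called higher on that scale.

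Other parts of the translation machinery were counted on day 18 against the same shares of all probe sets, 8.84% higher and 10.2% lower, and were not tested against the members. Of 3 ribosome components whose symbols fall outside the rule, RPSA (-0.01), FAU (-0.12) and the scaffold protein RACK1 (-0.08), none passed. Of 18 measured other genes with TOP messages, mostly translation factors, 7 fell and 1 rose (IPO7, 0.24), with a median of -0.16. The largest falls were those of the cyclin CCNI (12.19 ± 0.11 in pregnant and 12.63 ± 0.047 in cyclic heifers, a difference of -0.44) and the histone chaperone NAP1L1 (11.28 ± 0.024 and 11.70 ± 0.047, -0.43). The elongation factors EEF1B2 (-0.35) and EEF2 (-0.18) and the poly(A) binding protein PABPC1 (-0.29) fell too. EEF1A1, which carries transfer RNA to the ribosome, differed by -0.03 and did not pass.

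Proteins of the mitochondrial ribosome, a separate machine that translates mitochondrial messages, had more rises than falls. Of 67 measured, 20 rose, 2 fell and 45 did not pass, with a median of 0.13. The largest changes were the fall of MRPS6 (9.39 ± 0.21 in pregnant and 10.01 ± 0.12 in cyclic heifers, -0.61) and the rise of MRPL16 (9.81 ± 0.19 and 9.22 ± 0.069, 0.59). Of 47 ribosome biogenesis genes, 11 rose and 1 fell. The fall was that of NSA2 (-0.67), a factor of large subunit assembly, and the rises included SBDS (0.50), which releases a block on subunit joining, and HEATR1 (0.43). Of 30 other initiation factors 5 rose, 2 fell and 23 did not pass. The cap binding protein EIF4E rose by 0.99 ± 0.15 (10.73 ± 0.35 and 9.74 ± 0.16) and EIF2B2 by 0.49. Of 15 regulators of growth and of ribosomal protein messages, 1 rose (RPS6KA3, 0.74) and 2 fell (AKT2 and MXI1, by 0.33 each), counts near the shares of all probe sets.

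Markers of other cell types also differed on day 18. Of 4 endothelial markers 3 fell, led by PLVAP (-0.97) and PECAM1 (-0.83), and the log2 of the list's summed signal ran from 9.94 to 10.24 in pregnant and from 10.30 to 10.95 in cyclic heifers. Of 6 leukocyte markers 2 rose, IGHM by 1.29 and CSF1R by 0.85, with sums of 11.07 to 11.43 and 10.34 to 10.76. The epithelial list had 2 of 6 higher (CLDN4 by 0.78, CDH1 by 0.51) and 1 lower (KRT18), with overlapping sums of 13.46 to 13.72 and 13.35 to 13.62. The stromal list had 1 of 6 higher (PDGFRA, 0.48) and 1 lower (COL3A1, -0.46), with sums of 15.06 to 15.31 and 15.29 to 15.40. Neither of the 2 smooth muscle markers passed, with sums of 10.20 to 10.47 and 9.92 to 10.82. Of 4 genes listed as trophoblast markers, SSLP1 fell by 1.05, while TKDP1 (0.00), CSH2 (-0.05) and PAG2 (0.13) did not pass. CSH2 and PAG2 lay at 4.05 and 2.95 in pregnant heifers. The sums were 8.95 to 10.09 in pregnant and 10.41 to 10.81 in cyclic heifers. Cyclic heifers held no conceptus, so the summed list did not mark trophoblast here. The part of these cell types in the falls of the members was not tested. The GAPDH control difference was -0.01 ± 0.10 in pregnant and -0.02 ± 0.076 in cyclic heifers of day 18 (SD, n = 4 each).

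On day 15, 1 member passed. RPL34, a large subunit protein, had 12.69, 12.82 and 12.81 in the 3 pregnant heifers and 13, 12.95 and 12.99 in the 3 cyclic heifers. The groups did not overlap, and the difference was -0.21 ± 0.055 (adjusted p = 0.0306, limma over all probe sets). Among all probe sets, 2.32% fell and 2.75% rose. The call was lost in 5 of the 6 fits that left out 1 animal of the day, with adjusted p of 0.0561 to 0.161, and held only without pregnant replicate 2 (0.0373). It was also lost in a fit to the day 15 arrays alone (adjusted p = 0.225) and with arrays centred on the members (0.151). RPL7L1 (0.14, adjusted p = 0.188) and RPL19 (-0.13, adjusted p = 0.198) had the next smallest p and did not pass.

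The other members of day 15 leaned the same way without passing: 56 of 68 had a negative difference, with a median of -0.05 for the members and -0.01 for all probe sets, of which 52.6% were negative. The lean was no larger than that of other bright probe sets: the 161 others with a mean of at least 12 had a median of -0.06, and the 59 members as bright one of -0.05. The 3 pregnant arrays lay wholly below the 3 cyclic arrays for 21 members and wholly above for 1, against 12.7% and 9.91% of all probe sets. All 27 members that fell on day 18 had a negative difference on day 15, with a median of -0.08. Of the 41 other members 29 were negative, with a median of -0.04. The share among all probe sets that fell on day 18 was not counted. RPS7 had 12.38, 12.49 and 12.51 in pregnant and 12.64, 12.59 and 12.60 in cyclic heifers, and RPL4 had 12.95, 13.01 and 13.10 against 13.14, 13.09 and 13.15. RPS7 was apart and RPL4 overlapped by 1 animal. Mitochondrial ribosomal proteins (6 of 67, led by MRPS31 at 0.67 and MRPL12 at 0.60), biogenesis genes (5 of 47, led by MAK16 at 0.43 and NHP2 at 0.40) and other initiation factors (3 of 30, led by EIF4E at 0.81 and EIF4A1 at 0.57) had passed upwards by day 15, none downwards. CCNI (-0.32) and PABPC1 (-0.30) fell among the other TOP genes.

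On day 12, 0 of 68 members passed in limma, and 2 had an unadjusted p below 0.05 (RPL36A at -0.18 and RPL37 at 0.21). RPS19 (0.18) had the next smallest p. Of all probe sets 0.00416% (1 probe set) passed, and 6.65% had an unadjusted p below 0.05. The median difference was 0.00 for the members, 40 were positive and 28 negative (46.9% of all probe sets were negative), and the arrays of RPS7 (12.51, 12.63, 12.42, 12.45 and 12.49 in pregnant, 12.49, 12.52, 12.49, 12.61 and 12.51 in cyclic heifers) and RPL4 (13.10, 13.17, 13.11, 13.09 and 13.03, and 13.09, 13.14, 13.05, 13.06 and 13.07) overlapped fully. The standard errors of the members had a median of 0.045 on day 12, 0.059 on day 15 and 0.051 on day 18.

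Whether the pregnancy difference itself changed with the day was tested as an interaction. Between day 12 and day 15, RPL34 alone passed (-0.27 ± 0.070, adjusted p = 0.0472), where 0.62% of all probe sets passed downwards, and its call was lost in 14 of 16 fits that left out 1 animal (adjusted p up to 0.157). It held without pregnant replicate 2 of day 15 (0.0494) and without cyclic replicate 4 of day 12 (0.0315). RPL36A (0.21) and RPS27L (-0.23) came next and did not pass. Between day 15 and day 18, 0 of 68 members passed in limma and 12 had an unadjusted p below 0.05, against 0.208% and 9.27% of all probe sets. The largest were RPS7 (-0.38 ± 0.10, adjusted p = 0.141), RPL4 (-0.31 ± 0.074, adjusted p = 0.103) and RPL22 (-0.23 ± 0.079, adjusted p = 0.298). The greater number of calls on day 18 than on day 15 was not matched by an interaction past the threshold for any member.

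In biopsies taken 2 days after IFNA, no member passed. In limma, 0 of 68 passed against placebo and 0 against PBS, where 0.866% and 0.862% of all probe sets passed in either direction. At an unadjusted p below 0.05, 6 members were lower than in placebo and 7 lower than in PBS, and 0 were higher, where 3.63% and 5.36% of all probe sets were lower and 4.84% and 3.98% higher. The median difference of the members was -0.06 from placebo and -0.08 from PBS (-0.02 and -0.01 for all probe sets), and 49 and 54 of 68 members were negative, against 54.9% and 51.4% of all probe sets. The IFNA arrays lay wholly below the placebo arrays for 16 members, against 5.14% of all probe sets, and wholly below the PBS arrays for 27, against 8.47%; they lay wholly above the PBS arrays for 2, against 6.09%. None of the measured mitochondrial ribosomal proteins, biogenesis genes, other TOP genes, initiation factors or regulators passed against placebo or PBS either, with medians between -0.10 and 0.09.

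RPS7 was again at the low end. It had 12.21, 11.89 and 12.16 after IFNA, 12.66, 12.58 and 12.55 after placebo and 12.55, 12.63 and 12.65 after PBS. The IFNA heifers lay below all 6 others, and IFNA replicate 2 was the lowest. The differences were -0.51 from placebo (95% interval -0.75 to -0.27, adjusted p = 0.0874) and -0.52 from PBS (-0.77 to -0.28, adjusted p = 0.0838). With array weights both passed (adjusted p = 0.0346 and 0.0313), and with all arrays brought to one distribution the difference from PBS passed (adjusted p = 0.0493).

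RPL4 had 12.87, 12.58 and 12.95 after IFNA, 13.32, 13.29 and 13.20 after placebo and 13.24, 13.33 and 13.29 after PBS, differences of -0.47 (adjusted p = 0.157) and -0.49 (adjusted p = 0.127). RPL11 had 12.91, 12.65 and 12.89 after IFNA, 13.29, 13.12 and 13.14 after placebo and 13.19, 13.28 and 13.28 after PBS, differences of -0.37 (adjusted p = 0.266) and -0.43 (adjusted p = 0.147). IFNA replicate 2 was the lowest array for both, and the IFNA arrays lay apart from the others. RPS4Y1 (-0.27 and -0.29), RPL10A (-0.31 and -0.39) and RPL7 (-0.22 and -0.21) were the other members with an unadjusted p below 0.05 in both comparisons, and RPS6 (-0.26) had one against PBS.

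Between placebo and PBS, 0 of 68 members passed in limma and 0 had an unadjusted p below 0.05, where 0% and 2.71% of all probe sets did. The median difference was -0.01. The smallest p belonged to RPL3L (0.20, adjusted p = 0.999), RPL19 (-0.11) and RPS14 (-0.09).

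**Figure D4:**
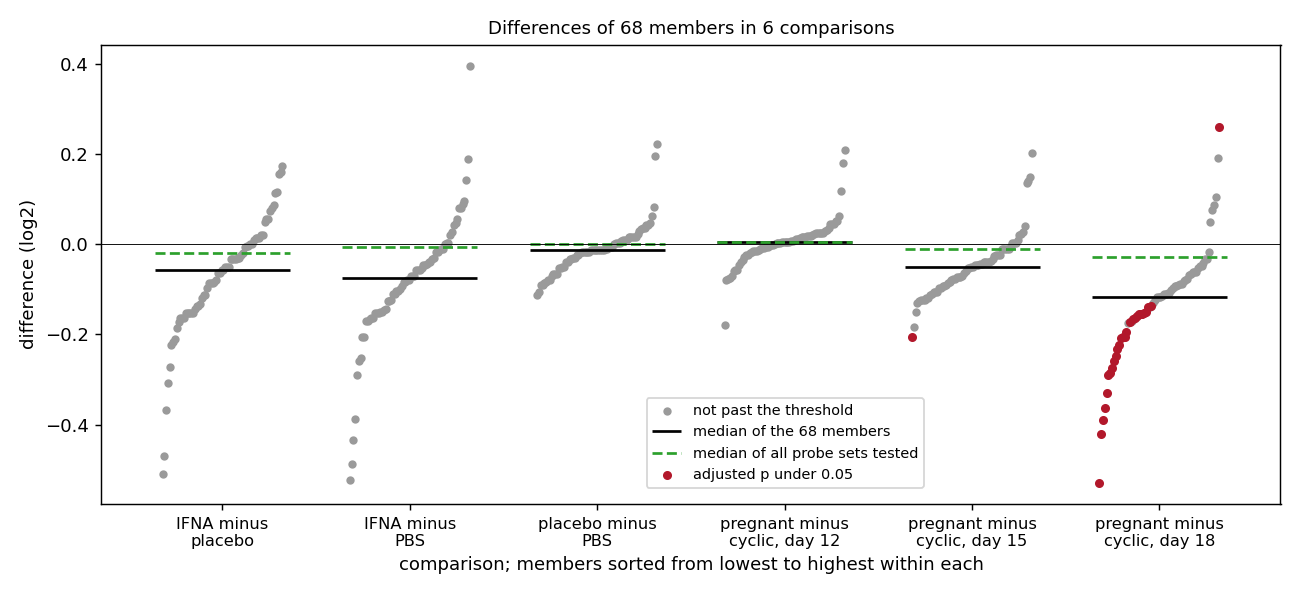
Difference in log2 signal of each of the 68 members in 6 comparisons, sorted within each; red points passed at an adjusted p below 0.05, the black line is the members' median and the dashed green line the median of all probe sets. Red points appear on day 15 (1) and day 18 (28). The members' median lies below the green line in all 6 comparisons, by the least on day 12 and between placebo and PBS.

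Set side by side, the members that fell on day 18 were also the low ones after IFNA. Of those 27, 26 had a negative difference from placebo and 26 from PBS (median of -0.15 in each), RPS27L being the exception (0.16 and 0.14). Among all probe sets, 54.9% and 51.4% were negative. The share among all probe sets that fell on day 18 was not counted, so this is not shown to be particular to the members. All members with an unadjusted p below 0.05 after IFNA were among the 27. Of the 41 other members, 23 and 28 were negative, with medians of -0.01 and -0.03. Over the 68 members the day 18 difference correlated with the difference between IFNA and placebo at r = 0.76 (Spearman 0.73) and with that between IFNA and PBS at r = 0.83 (Spearman 0.82); over all 24016 probe sets r was 0.55 and 0.59. The comparisons share no animals, but they share the probes, the IFNA arrays enter both biopsy comparisons, and genes are not independent replicates, so these are descriptions.

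**Figure D5:**
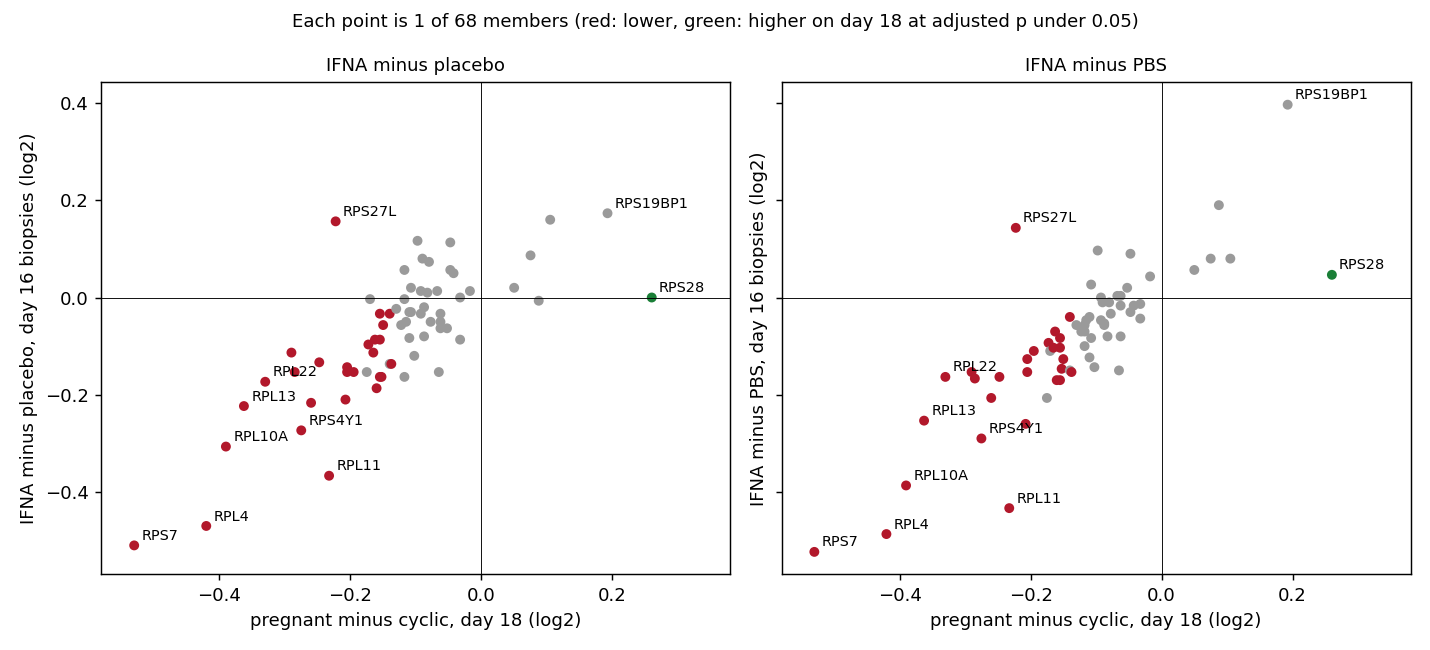
Difference between pregnant and cyclic heifers on day 18 (x axis, log2) against the difference between IFNA and placebo (left) or IFNA and PBS (right) in day 16 biopsies (y axis, log2), 1 point per member. RPS7 (-0.53 on the x axis) and RPL4 (-0.42) lie lowest on both axes, and RPS27L is the red point above 0.

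Cell markers differed in the biopsies as well. Against placebo, 2 of 6 leukocyte markers rose (IGHM by 1.6, CSF1R by 1.12), with sums of 10.89 to 10.98 after IFNA, 9.65 to 10.56 after placebo and 10.37 to 10.55 after PBS. Against PBS, 2 of 4 endothelial markers fell (PLVAP by 1.43, PECAM1 by 1.01), with sums of 9.64 to 10.11, 10.07 to 10.52 and 10.76 to 10.89. None of the 6 stromal markers passed, with sums of 14.77 to 15.25, 15.22 to 15.47 and 15.30 to 15.57. The part of these cells in the members' differences was not tested. With the GAPDH control difference as a covariate, RPS7 differed by -0.51 and -0.53, much as without it.

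That control difference went with the signal of some members from biopsy to biopsy, at a share near or below that of all probe sets. RPLP0 had 13.17, 12.91 and 12.95 after IFNA, 13.11, 12.69 and 13.38 after placebo and 12.86, 13.05 and 13.17 after PBS, on arrays with GAPDH differences of 1.66, 2.49 and 2.98, of 2.83, 3.87 and 1.03, and of 3.30, 3.11 and 1.59. High RPLP0 went with a small GAPDH difference. The actin control difference stayed between 1 and 1.03 on the placebo arrays and ran from 0.53 to 1.54 over all biopsies. Members were not compared with actin. Over the 9 arrays Pearson's r was -0.90 (exact permutation p = 0.00111, adjusted over 24016 probe sets 0.028) and Spearman's rho -0.88 (exact permutation p = 0.00337, adjusted 0.087). Within groups r was -0.92, and without the 2 arrays farthest from the median, placebo 3 and PBS 3, r was -0.79. For RPL7A, a large subunit protein, r was -0.91 (exact permutation p = 0.000909, adjusted 0.0258) and rho -0.93 (exact permutation p = 0.000816, adjusted 0.0499), with r of -0.93 within groups and of -0.89 without the same arrays. RPL37A went the other way, with r of 0.83 (exact permutation p = 0.00347, adjusted 0.0488), but its rho of 0.60 did not pass (exact permutation p = 0.0958, adjusted 0.352) and without those arrays r was 0.54. These 3 members passed by Pearson's r, where 7.31% of all probe sets did. By Spearman's rho 1 member passed (RPL7A), where 1.66% of all probe sets did. At an unadjusted p below 0.05 there were 17 of 68 members, 5 with a negative and 12 with a positive r, against 24.3% of all probe sets, so the members' share was near the background. RPLP0 is often used to normalise expression between samples; its range over the 9 biopsies was 12.69 to 13.38.

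Within groups most members varied together from animal to animal. With the mean of its group taken from each deposited value, each member was correlated over the 33 arrays with the median of the other 67. The median r was 0.65, 41 members were above 0.5, and 3 were below 0 (RPS19BP1 at -0.17, RPS3A at -0.15 and RPL7A at -0.03). RPS21 (0.85) and RPS10 (0.83) followed the rest most closely. These r describe deviations within groups and hold no shift between groups or sets. Arrays of a set share their normalisation, and no test was made. The share of other probe sets, bright ones included, with such an r was not counted, so the counts are a description.

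Between days the direction of the members depended on the scaling. With arrays centred on their median, 57 members rose and 1 fell in cyclic heifers on day 15 against day 12, where 39.4% of all probe sets rose and 19.1% fell, and 54 rose and 2 fell in pregnant heifers (39% and 21.3%). On day 18 against day 15, 3 rose and 63 fell in cyclic heifers (16.7% and 32.8% of all probe sets) and 3 rose and 63 fell in pregnant heifers (18.5% and 33.7%). On the same scale 76.4% of the 161 other probe sets with a mean of at least 12 fell on day 18 against day 15 in cyclic heifers, with a median of -0.44 against -0.57 for the 59 members as bright.

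As deposited, the counts turned: 7 members rose and 18 fell on day 15 against day 12 in cyclic heifers (12.3% and 45.4% of all probe sets) and 54 rose and 1 fell on day 18 against day 15 (79.5% and 4.31%). With all arrays brought to one distribution, the counts were 30 and 4 for the first step (26.8% and 23.9%) and 9 and 15 for the second (20.5% and 19.4%). In pregnant heifers they were 7 and 25 (14.4% and 49.2%) and 37 and 3 (78.2% and 4.73%) as deposited, and 22 and 11 (26.9% and 26.6%) and 6 and 29 (22.4% and 21.4%) with one distribution. The median of all probe sets moved with the scaling as well, by -0.21, 0.14 and 0.02 for cyclic day 15 against day 12 and by 0.66, -0.10 and 0.01 for cyclic day 18 against day 15 (as deposited, centred, one distribution). Day, part of the horn and normalisation cannot be told apart.

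A few members kept 1 direction under all 3 scalings. The share of all probe sets that did so was not counted, so the names are a description. The 7 rises in each state between day 12 and day 15 stood against 12.3% (cyclic) and 14.4% (pregnant) of all probe sets that rose as deposited. The members' counts were not above these shares. In cyclic heifers RPL7L1, RPL29, RPS9, RPL24, RPL10A, RPL35A and RPLP0 rose between day 12 and day 15, by 0.64, 0.62, 0.60, 0.59, 0.52, 0.51 and 0.50 on centred arrays. In pregnant heifers RPL7L1 (0.74), RPL36A (0.71), RPLP2 (0.56), RPL24 (0.55), RPS9 (0.54), RPL7A (0.53) and RPLP0 (0.52) did. RPL7L1, RPL24, RPS9 and RPLP0 were in both lists. RPS27L fell in pregnant heifers (-0.28). RPLP2 in cyclic and RPS19BP1 in pregnant heifers were among the 8 largest rises on centred arrays, at 0.51 and 0.53, and did not pass as deposited.

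RPL37 fell between day 12 and day 15 and rose between day 15 and day 18 in both states and under all 3 scalings, on a dim probe set. Its deposited signals were 5.74 to 6.08 in pregnant and 5.69 to 5.88 in cyclic heifers of day 12, 4.59 to 4.70 and 4.44 to 4.65 on day 15, and 6.63 to 6.70 and 6.49 to 6.94 on day 18. On centred arrays the falls were -0.94 ± 0.090 in pregnant and -0.89 ± 0.090 in cyclic heifers, and the rises 1.24 ± 0.094 and 1.49 ± 0.094. RPS19, dim as well, rose between day 15 and day 18 (0.50 ± 0.11 and 0.56 ± 0.11), and its other probe set, dimmer still, fell (-0.68 and -0.53). RPL3L rose in pregnant heifers (0.37 ± 0.098) and, on centred arrays, in cyclic heifers (0.24), where it did not pass with one distribution (0.17, adjusted p = 0.178).

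The falls between day 15 and day 18 that held under all 3 scalings were those of RPL37A in both states, and of RPL10A and RPS7 in pregnant heifers. As deposited, 4.31% of all probe sets fell in cyclic and 4.73% in pregnant heifers. The members' counts were not above these shares. The share that fell under all 3 scalings was not counted. RPL37A fell by 0.89 ± 0.051 in pregnant and by 0.89 ± 0.051 in cyclic heifers on centred arrays, by 0.31 and 0.36 with one distribution, and by only 0.145 and 0.14 as deposited. RPL10A and RPS7 fell by 0.98 ± 0.073 and 0.92 ± 0.069 in pregnant heifers on centred arrays, by 0.57 and 0.50 with one distribution, and by only 0.23 and 0.17 as deposited. In cyclic heifers RPS7 differed by -0.11 with one distribution and did not pass (adjusted p = 0.212). The second probe set of RPS7, with a mean of 7.79, went the other way on centred arrays (0.27 in pregnant and 0.24 in cyclic heifers). Others with large falls on centred arrays did not pass downwards as deposited. In cyclic heifers these were RPS28 (-0.90), RPL31 (-0.79), RPS13 (-0.73), RPL21 (-0.71), RPS14 (-0.71), RPL10A (-0.70) and RPS26 (-0.70), and as deposited all but RPS28 and RPL31 turned to small positive differences (0.02 for RPS13 to 0.05 for RPS26). In pregnant heifers they were RPL22 (-0.86), RPS13 (-0.83), RPL4 (-0.82), RPL31 (-0.80) and RPL11 (-0.80).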

How the data were processed

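Affymetrix bovine arrays of 33 heifers were used, 1 per animal, with groups taken from the labels. The deposited log2 values per probe set were made by the authors by RMA in affy (versions not given), per the submitters' processing notes. That the 4 sets of arrays were normalised separately is inferred from the values. RMA sets each set's arrays to a common distribution, so a shift of most genes would not be seen. All 33 columns of the table were used.

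Of 24128 probe sets, 112 controls were left out. Gene symbols came from the array annotation (13292 probe sets with 1 symbol, 86 with several, 10638 with none), and 13263 were updated by gene identifier in RefSeq. The members, gene lists and tests were chosen with earlier results of these data known. The comparison with the GAPDH control signal (exact permutation over all orders of the 9 biopsy arrays, per probe set) was added after seeing the data.

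Each probe set was tested with limma 3.58.1 (lmFit and eBayes under R 4.3.3), with 1 mean per group, on the 9 biopsy or the 24 slaughter arrays, on values as deposited, and on median-centred arrays between days. Tests were two-sided, with Benjamini-Hochberg adjustment over 24016 probe sets and a threshold of 0.05. The fit was tested on simulated data. No depth exists for arrays; their number limits the precision. The labels call the arrays biological replicates. Members named are, per comparison, up to 8 with the largest rise and fall past the threshold or, with fewer than 3, the 3 with the smallest p, plus the 5 brightest and 5 dimmest, RPLP0, RPLP2, RPS6, RPL10, RPL22 and the variant copies with their parents; of each other list, the 2 largest changes. Further names were chosen after their values were seen. Alternatives were other scalings, probe set rules, array weights, a filter on dim probe sets, a replicate block, a GAPDH covariate, smaller fits and leaving out each animal.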

Additional observations from a re-analysis of the deposited data

Results flagged for a closer look

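Among 128 sets of values tested (named members in groups of 4 or more heifers), 9 held an animal far from the others; chance flags about 1 in 20. On day 12, pregnant replicate 2 was high for RPL11 (13.24, the others 13.08 to 13.11), RPL13 (12.74, the others 12.57 to 12.61) and RPL21 (13.49, the others 13.39 to 13.41), and pregnant replicate 1 was high for RPS9 (12.46, the others 12.30 to 12.34). Cyclic replicate 4 of day 12 was high for RPS7 (12.61, the others 12.49 to 12.52) and cyclic replicate 2 for RPL11 (13.16, the others 13.11 to 13.12). On day 18, pregnant replicate 2 was high for RPL37 (6.70, the others 6.63 to 6.64), and cyclic replicate 2 was high for RPL10A (12.67, the others 12.56 to 12.57) and RPS9 (12.85, the others 12.66 to 12.68). The difference between pregnant and cyclic heifers changed between day 12 and day 15 for RPL34 (-0.27, adjusted p = 0.0472 in limma's interaction term).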

How the results depend on the processing

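In the pregnancy comparison of day 18, the count of members that fell was 24 to 30 with array weights, a replicate block, all probe sets of a gene averaged, the dimmest probe sets left out, or arrays centred on their median or brought to one distribution. Centred on the members 6 fell and 7 rose, and in a fit on the day alone 14 fell and 0 rose; leaving out 1 animal gave 19 to 24 falls and 0 to 2 rises. On day 15, 0 members fell centred on the members and 0 in a fit on the day alone, and 0 to 1 when 1 animal was left out. The change of the pregnancy difference from day 12 to day 15 gave 0 falls with one distribution, centred on the array median, centred on the members and with the replicate block, and 0 to 1 without 1 animal. From day 15 to day 18 it gave 1 fall (RPL4) with one distribution. IFNA against placebo gave 1 fall with array weights, and IFNA against PBS 1 with array weights and 1 with one distribution. Deviations of same-numbered animals had correlations of -0.34 to 0.37, with 6 of 21 pairs over 0.1. They were all positive on days 12 and 15 (0.02 to 0.20) and of both signs elsewhere. No strong pairing by number was seen, and these correlations cannot show that a weaker one was absent.

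Between days the counts followed the scaling, by its own construction. For cyclic day 15 against day 12 they were 30 rises and 4 falls with one distribution, 7 and 18 as deposited, and 11 and 16 centred on the members; for pregnant heifers 22 and 11, 7 and 25, and 16 and 14. For cyclic day 18 against day 15 they were 9 and 15, 54 and 1, and 20 and 8; for pregnant heifers 6 and 29, 37 and 3, and 25 and 8. As deposited, the falls of cyclic day 18 against day 15 turned to 0.02 for RPS13, 0.0408 for RPL21, 0.045 for RPS14, 0.046 for RPL10A and 0.0475 for RPS26. With all probe sets of RPS19 averaged, its rise in pregnant heifers on day 18 against day 15 turned to -0.0875. Leaving out 1 animal moved the day counts only within 49 to 59 rises and 1 to 3 falls (day 15 against day 12) and 2 to 3 rises and 62 to 63 falls (day 18 against day 15). Apart from the scaling between days, the causes of the changes between these settings were not tested. With 3 to 5 arrays per group, the members' standard errors had medians of 0.045 (day 12) to 0.092 (biopsies), which limits what could be seen.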
